A study of Mus musculus and blank sample with 91 samples.

Results

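Coriobacteriaceae is a family of strictly anaerobic gut bacteria in the phylum Actinobacteria. The genus Adlercreutzia, which the taxonomy of the study places in it, is known for converting the soy isoflavone daidzein to equol. The members were the 19 amplicon sequence variants (ASVs) of 2295 whose family is Coriobacteriaceae in the taxonomy of the study. All 19 carried the genus name Adlercreutzia and the species name Adlercreutzia_NA, so that the family, the genus and the species name held the same counts in every sample. Of 14 listed gut genera of Actinobacteria, among them Bifidobacterium, Collinsella and Eggerthella, Adlercreutzia was the only one named in the taxonomy, and no other family of the phylum was listed.

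Amplicons of the V3–V4 part of the 16S rRNA gene, which bacteria carry, were sequenced from fecal pellets of female C57BL/6 mice, 8 weeks old at purchase, in 3 treatment groups, collected before immunization (-2 dpi, days post immunization) and at 8, 14, 19 and 29 dpi. EAE mice received the MOG peptide emulsified in Complete Freund's Adjuvant and pertussis toxin on days 0 and 2, and develop experimental autoimmune encephalomyelitis, a paralytic model of multiple sclerosis. CFA mice received the adjuvant without the peptide, and naïve mice were not immunized. Each group had 6 mice per day, except that 5 EAE mice had a sample at 14 dpi and that 5 CFA mice were used at 29 dpi because the sample of mouse 548 held a total of 0 counts. Mice were housed in groups and whole cages were assigned to a treatment, but the cage of a mouse is not in the labels, so that cage and treatment cannot be told apart and p-values over mice take cage mates as independent. In the sample labels, EAE mice carried the numbers 550, 551, 553, 555, 556 and 557 at -2 and 8 dpi and 588, 589, 591, 593, 594 and 595 from 14 dpi on. The animal number in the deposited sample table differed from the label in these 17 later samples, and gives them to the animals 550, 551, 553, 555, 556 and 557 in that order. Mice are named here by their label numbers. The 88 samples used held 9202 to 102437 counts with a median of 64586. EAE mice 551 and 555 at 8 dpi and EAE mouse 595 at 19 dpi held fewer than 30 ASVs, and all 3 of those samples were at 0 for Coriobacteriaceae.

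A 16S amplicon survey counts relative abundance, so a percent of a sample's counts can fall when other bacteria rise, and a family at 0 may lie below what was detected. Coriobacteriaceae held 11478 counts, or 0.205% of all counts. Its mean of 0.209% per sample placed it in rank 15 of 26 families. It had counts in 25 of 88 samples: 16 of 30 naïve samples, 6 of 29 CFA samples and 3 of 29 EAE samples. Counts on at least 1 day were found in 6 of 6 naïve mice, 4 of 6 CFA mice and 3 of 12 EAE label numbers, or 3 of 6 EAE animals by the sample table. Where the family was present it made up 0.070% to 1.41% of the counts, with a median of 0.745%.

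The member ASVs differed from each other mostly in the primer sites. The forward primer is a mixture that holds an N (any base) and a W (A or T), and the reverse primer holds an H (A, C or T) and a V (A, C or G). These 4 ambiguous positions allow 72 primer forms, and the ASV sequences still contained both primers. With the primers removed, the 19 ASVs collapsed to 5 distinct sequences, here called types A to E. Type A comprised 15 ASVs with the same 402 bases, and it held 10531 counts, 91.7% of the family, in 22 samples. Type B differed from type A by the single substitution G361A, counted from the first base after the forward primer with the base of type A given before the position, and occurred in CFA mouse 544 at 14 dpi with 534 counts. The other types were less alike. Type C was 94.0% identical to type A and held 360 counts in CFA mouse 544 at -2 dpi. Type D was 94.3% identical to type A and held 50 counts in CFA mouse 543 at 14 dpi. Type E was 95.3% identical to type A and held 3 counts in naïve mouse 560 at -2 dpi, beside 195 counts of type A. Against all ASVs outside the family, the closest match of a type was 84.5% to 85.1% identical, lower than the identity of any type to type A.

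Each sequence appeared in a single primer form within a sample. All 26 entries of a member sequence in a sample rested on 1 ASV, and 24 of the 25 samples with counts held 1 member ASV. The primer form changed between samples of the same mouse. Among the 7 mice with counts on at least 2 days, none of 18 pairs of days shared a member ASV. At 14 dpi the 6 naïve mice carried 6 different member ASVs, all of type A. For sequences outside the family with 166 to 921 counts in a sample, 93.7% of 1846 entries likewise had 1 primer form, whereas 1030 entries above that range had a median of 3 forms. Among the 19 ASVs, 14 (73.7%) occurred in 1 sample, against 58.7% of all ASVs. The part of the primer forms in whether the family was listed at 0 was not tested.

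**Figure D1:**
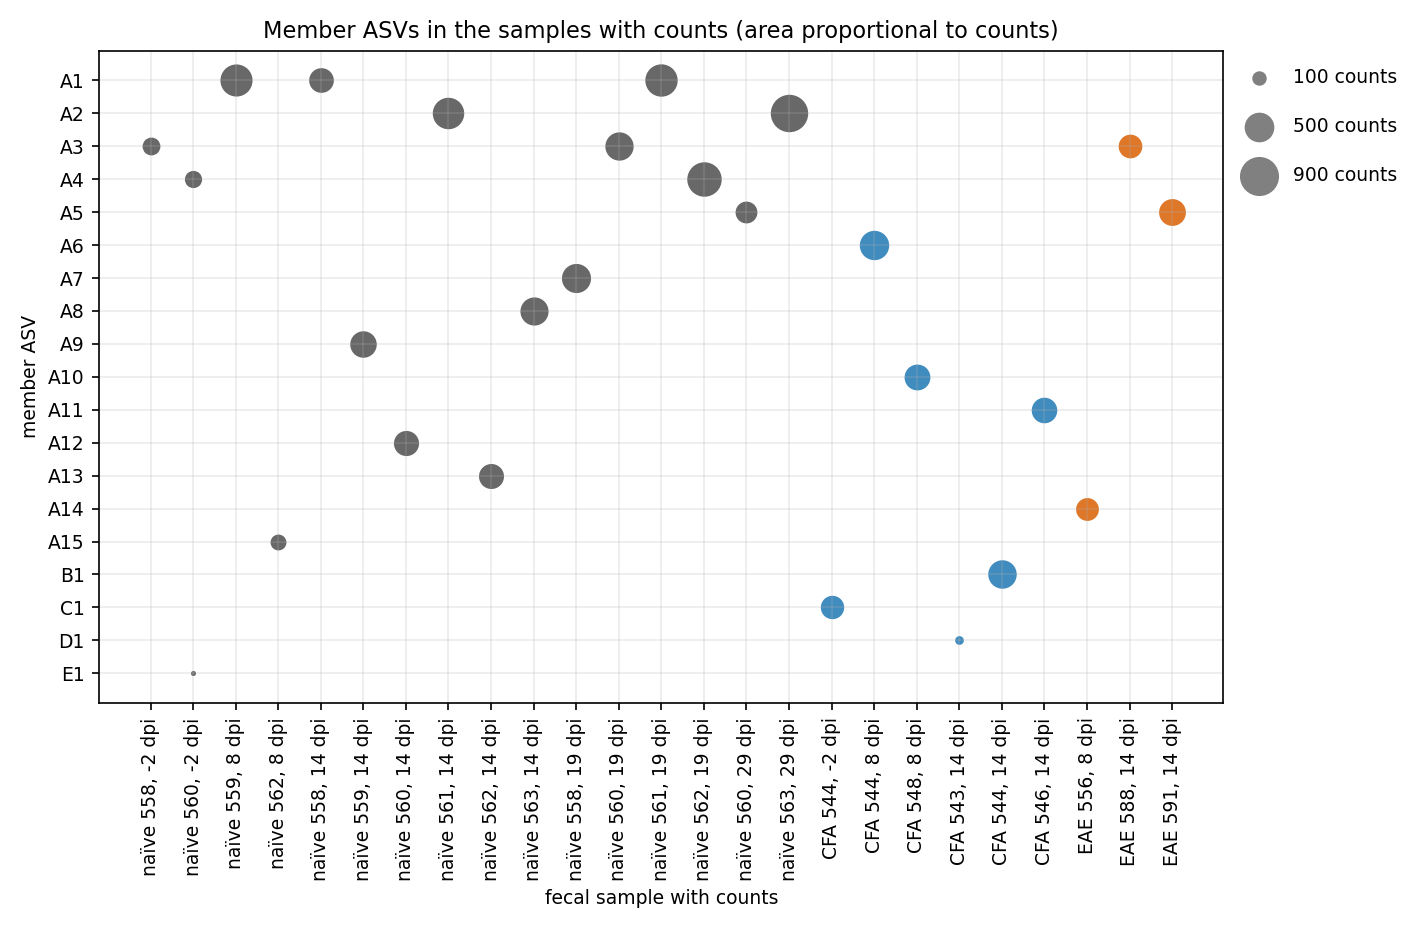
Counts of the 19 member ASVs (rows) in the 25 fecal samples with counts (columns); point area is proportional to the counts, with a minimum size for the 3 counts of E1, and colour marks naïve (grey), CFA (blue) and EAE (orange) mice. Each column holds 1 point except naïve mouse 560 at -2 dpi with 2, and the points of 1 mouse on different days lie in different rows.

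The step from 0 to present was wide. Apart from CFA mouse 543 at 14 dpi with 50 counts, each sample with counts held at least 166 counts and at least 0.283%. For the lowest of these, naïve mouse 562 at 8 dpi, the 95% Wilson interval of 0.283% was 0.243% to 0.329%, and intervals of this kind cover counting error only. In the 63 samples without counts, a count of 0 allows a share of up to 0.00293% to 0.0326% (3 counts of the total) by counting error alone. The median total was 65639 counts where the family was present and 64065 where it was at 0. The lowest total with the family present was 31179. Below it, and at 0, lay EAE mice 551 and 555 at 8 dpi, 589 at 14 dpi and 595 at 19 dpi. These held 17439, 9202, 17326 and 15279 counts. The median total was 55362 in EAE, 65928 in CFA and 65306.5 in naïve samples.

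The naïve group had the highest mean at -2, 14, 19 and 29 dpi, and the CFA group at 8 dpi. Before immunization, naïve mouse 558 had 0.348% and mouse 560 had 0.549%, and mice 559, 561, 562 and 563 were at 0. At 8 dpi, mouse 559 had 1.034%, mouse 562 had 0.283%, and the other naïve mice were at 0. At 14 dpi, the 6 naïve mice 558 to 563 had 0.949%, 0.734%, 0.747%, 1.259%, 0.745% and 0.795%. This was the only one of the 15 groups in which each mouse had counts. At 19 dpi, naïve mice 558, 560, 561 and 562 had 0.716%, 0.821%, 0.977% and 1.148%, and mice 559 and 563 were at 0. At 29 dpi, mouse 560 had 0.370%, mouse 563 had 1.005%, and 4 naïve mice were at 0. Mouse 560 was the one with counts on the most days, 4 of 5.

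CFA mice had counts up to 14 dpi only. Mouse 544 alone had counts at -2 dpi, with 0.512%. At 8 dpi, mouse 544 had 0.809% and mouse 548 had 1.411%, the highest value of any sample. At 14 dpi, mice 543, 544 and 546 had 0.070%, 1.013% and 0.529%. All 6 CFA mice at 19 dpi and all 5 at 29 dpi were at 0. CFA mouse 544 thus had counts at -2, 8 and 14 dpi, in sequence types C, A and B, and the other CFA mice had counts on at most 1 day.

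EAE mice had counts in 3 samples. At -2 dpi all 6 were at 0, and at 8 dpi only mouse 556 had counts, with 0.626%. At 14 dpi, mouse 588, with a clinical score of 1, had 0.441% and mouse 591, with a score of 0, had 0.464%. Mice 589, 593 and 595 on that day, with scores of 3, 0 and 3.5, were at 0. All 6 EAE mice at 19 dpi and all 6 at 29 dpi were at 0. With 2 positive mice at 14 dpi, no relation to the score was tested.

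**Figure D2:**
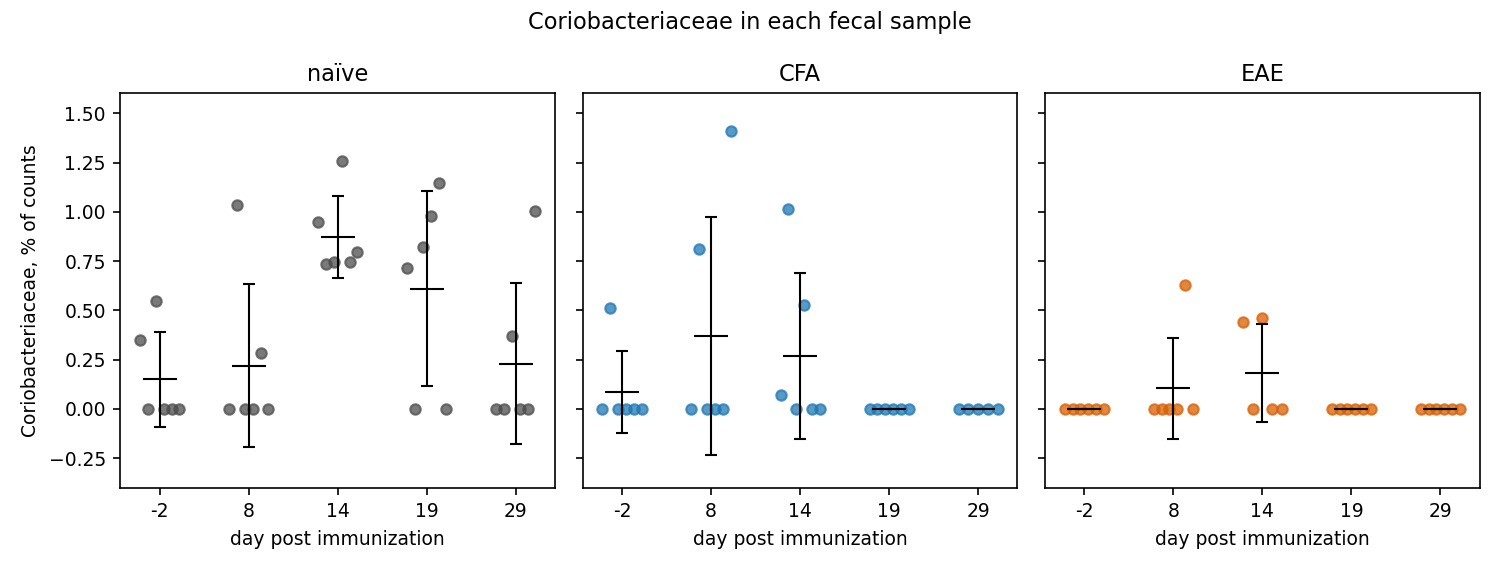
Coriobacteriaceae as a percent of the counts of each fecal sample (vertical axis) by day (horizontal axis) in naïve, CFA and EAE mice; points are mice, and the black bar and whiskers are the mean and SD of the group, whose whiskers can reach below 0. The 6 naïve samples at 14 dpi lie between 0.734% and 1.259%, and CFA and EAE samples at 19 and 29 dpi lie at 0.

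Ordered by group mean, naïve mice led at 14 dpi with 0.872% ± 0.206 (SD, n = 6) and at 19 dpi with 0.610% ± 0.495 (n = 6). CFA mice followed at 8 dpi with 0.370% ± 0.604 (n = 6) and at 14 dpi with 0.269% ± 0.419 (n = 6). Next came naïve mice at 29 dpi with 0.229% ± 0.408 (n = 6) and at 8 dpi with 0.219% ± 0.415 (n = 6), and EAE mice at 14 dpi with 0.181% ± 0.248 (n = 5). The lowest means above 0 were those of naïve mice at -2 dpi with 0.149% ± 0.240 (n = 6), EAE mice at 8 dpi with 0.104% ± 0.256 (n = 6) and CFA mice at -2 dpi with 0.0854% ± 0.209 (n = 6). The remaining 5 groups were at 0. Each step between neighbours in this order was smaller than the larger of their SDs.

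To compare the treatments with 1 value per mouse, the percents of each mouse were averaged over 14, 19 and 29 dpi. Over these days EAE mice, too, keep 1 label number each. The window leaves out 8 dpi, when the CFA mean (0.370%) was above the naïve mean (0.219%). A mean that includes 8 dpi was not tested, so the differences below hold for this window only. Naïve mice 558 to 563 had means of 0.555%, 0.245%, 0.646%, 0.745%, 0.631% and 0.600%. CFA mice 543, 544 and 546 had 0.0233%, 0.338% and 0.176%, and mice 545, 547 and 548 were at 0. EAE mice 588 and 591 had 0.147% and 0.155%, and mice 589, 593, 594 and 595 were at 0. The naïve and EAE mice did not overlap, whereas CFA mouse 544 lay above naïve mouse 559. Before immunization, 2 of 6 naïve, 1 of 6 CFA and 0 of 6 EAE mice had counts.

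Coriobacteriaceae was lower in EAE than in naïve mice over these days, at 0.0503% ± 0.0779 (SD, n = 6) against 0.570% ± 0.172 (n = 6), an 11.3-fold difference of the means. The fold rests on the 2 EAE mice with counts, and was 18.4 without mouse 588 and 19.4 without mouse 591. In the two-sided exact permutation test the p was 0.00216, the smallest that 6 against 6 mice allow, and 0.00830 after Benjamini-Hochberg adjustment over the 23 families tested. This test called 8 of 23 families, or 34.8%, of which 5 were higher and 3 lower in EAE mice. CFA mice, at 0.0896% ± 0.140 (n = 6), were also lower than naïve mice, by 6.37-fold, with an exact p of 0.00433 and an adjusted p of 0.0498, where 3 of 23 families, or 13%, were called. Without CFA mouse 544 the fold was 14.3. This call sat at the threshold: leaving out any of CFA mice 545, 546, 547 and 548 gave an adjusted p of 0.0664, and leaving out any of naïve mice 558, 560 and 561 gave 0.0747. EAE and CFA mice differed by less than their spread, with an exact p of 0.5 and an adjusted p of 0.676, although 9 of 23 families, or 39.1%, were called between them.

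The number of days with counts per mouse gave a similar order. Over the 3 days, naïve mice 558 to 563 had counts on 2, 1, 3, 2, 2 and 2 days, CFA mice on 0 or 1 day, and EAE mice on 0 or 1 day. EAE mice had fewer such days than naïve mice, with means of 0.333 ± 0.516 and 2.00 ± 0.632, an exact permutation p of 0.00649 and an adjusted p of 0.0498, where 3 of 23 families, or 13%, were called. That call was lost, with an adjusted p of 0.0664, without any of EAE mice 589, 593, 594 and 595, and with 0.0996 without naïve mouse 560. CFA mice, with a mean of 0.5 ± 0.548, had an exact p of 0.00866 against naïve mice that did not pass after adjustment (0.0996), and without naïve mouse 559 it passed (0.0166). For EAE against CFA mice the exact p was 1.

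**Figure D3:**
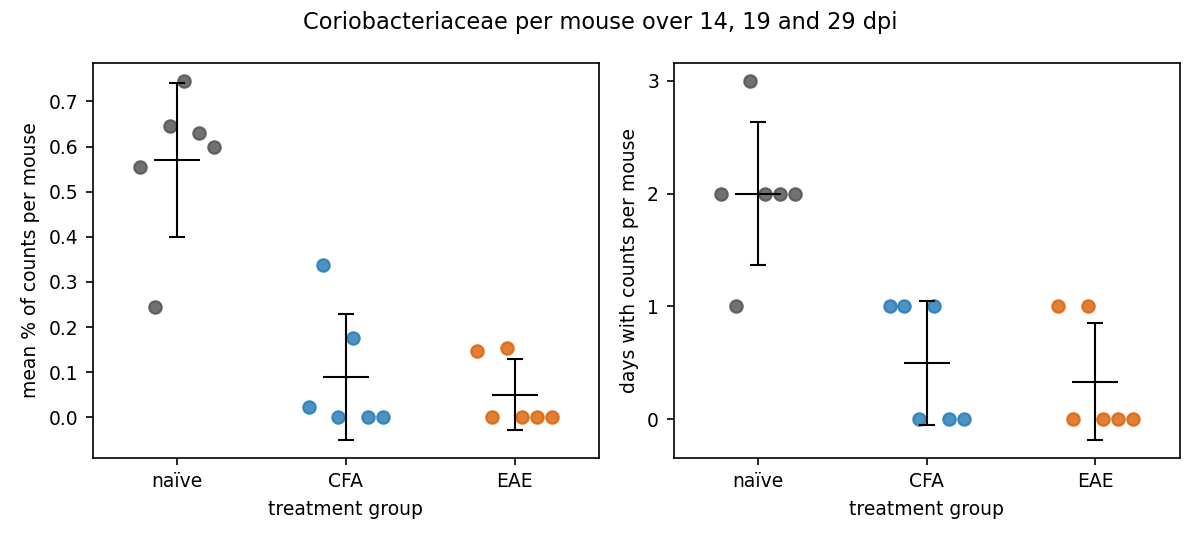
Each point is a mouse: its mean percent of counts over 14, 19 and 29 dpi (left axis panel) and the number of those days with Coriobacteriaceae counts (right axis panel), for 6 naïve, 6 CFA and 6 EAE mice; black bars and whiskers are the mean and SD. Naïve mice had means from 0.245% to 0.745%, and EAE mice had at most 0.155%.

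Day by day, the exact permutation test of percent called Coriobacteriaceae at 14 dpi between EAE and naïve mice, the day with the fullest presence in naïve mice. EAE mice had 0.181% ± 0.248 (n = 5) against 0.872% ± 0.206 (n = 6) in naïve mice, and no EAE mouse reached the lowest naïve mouse. The two-sided p was 0.00216 and the adjusted p 0.00830, where 6 of 23 families, or 26.1%, were called. With medians in place of means the adjusted p was 0.0747. At 14 dpi CFA mice had an unadjusted exact p of 0.0260 against naïve mice, which did not pass after adjustment (0.0996), and without CFA mouse 544 it did (0.0166). At 19 dpi, 0 of 6 EAE mice and 0 of 6 CFA mice had counts against 4 of 6 naïve mice, each with an exact p of 0.0606. At 29 dpi, 0 of 6 EAE mice against 2 of 6 naïve mice gave an exact p of 0.455, the same as at -2 dpi, where the counts of mice were the same. No exact test of presence at a single day passed, and the lowest adjusted p was 0.465. For presence against naïve mice at 14, 19 and 29 dpi, the split of mice was already the most uneven possible in that direction. With so few mice these tests could not reach a p under 0.05, and no conclusion is drawn from them.

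The edgeR quasi-likelihood test on family counts called a different set of days. Coriobacteriaceae was lower in EAE than in naïve mice at 19 dpi and at 29 dpi, with adjusted p-values of 0.0227 and 0.0222, and on each of these days 6 of 23 families, or 26.1%, were called. It was lower in CFA than in naïve mice at 19 dpi (adjusted p = 0.0309), where 3 of 23 families, or 13%, were called. The family was at 0 in each mouse of the lower group in all 3 of these comparisons, so no fold change is given. At 14 dpi, where both groups had counts, the edgeR log2 fold change of EAE against naïve mice was -2.79 ± 2.99 (SE) with an adjusted p of 0.581. The dispersion fitted to the family was 13.6, against a median of 9.60 over families. Before immunization, 0 of 6 EAE mice against 2 of 6 naïve mice had an unadjusted edgeR p of 0.00705, close to the 0.00460 for the same numbers of mice at 29 dpi, and the 2 days fell on different sides of the threshold after adjustment over families (0.156 and 0.0222). CFA against naïve mice at 29 dpi had an adjusted p of 0.0700. The edgeR call between CFA and naïve mice at 19 dpi was lost without any 1 of the 6 CFA mice (adjusted p 0.0608 to 0.0629), and that between EAE and naïve mice at 19 dpi without EAE mouse 594 (0.05004). EAE and CFA mice were not told apart by edgeR at -2, 8 or 14 dpi (adjusted p = 0.0729, 0.672 and 0.848), although at 8 dpi the adjusted p was 0.0303 without EAE mouse 556, the one with counts. At 19 and 29 dpi both were at 0. In the edgeR comparisons that did not call the family, other families were called at these shares: 0%, 17.4% and 13% for EAE against naïve mice at -2, 8 and 14 dpi, 8.7%, 21.7%, 17.4% and 8.7% for CFA against naïve mice at -2, 8, 14 and 29 dpi, and 8.7%, 39.1% and 56.5% for EAE against CFA mice at -2, 8 and 14 dpi.

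Within groups, each later day was compared with -2 dpi. In naïve mice the percent was higher at 14 dpi than at -2 dpi in 6 of 6 mice, by 0.722 percentage points on average. The paired exact sign-flip p of 0.0312 was the smallest that 6 pairs allow, and did not pass after adjustment over families (0.719). At 19 dpi, 4 of 6 naïve mice were higher than at -2 dpi and none lower, by 0.461 percentage points on average, with an exact p of 0.125. CFA mice were higher at 8 dpi in 2 of 6 mice and at 14 dpi in 3 of 6, and none was lower (exact p = 0.5 and 0.25). Mice at 0 on both days add nothing to this test, so these 3 p-values were the smallest that 4, 2 and 3 changed mice allow. At 19 and 29 dpi mouse 544, the CFA mouse with counts at -2 dpi, was at 0. By edgeR, no later day differed from -2 dpi in any group after adjustment, and the lowest adjusted p was 0.0733, for EAE mice at 14 dpi. These comparisons called 0%, 4.35% or 8.7% of 23 families. The unadjusted edgeR p was under 0.05 in 4 of the 10 comparisons with counts, and in each of these a group was at 0. By edgeR, the change since -2 dpi did not differ between CFA and naïve mice after adjustment, with a lowest adjusted p of 0.130. Its unadjusted p was 0.0153 at 19 dpi and 0.0283 at 29 dpi, with CFA mice at 0 on both days. The change was not compared in this way for EAE mice. Paired by the animal numbers of the sample table, 2 of 5 EAE mice were higher at 14 dpi than at -2 dpi and none lower. The exact sign-flip p was 0.5, the smallest that 2 changed mice allow, so this test could not pass.

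At the rank of single ASVs, 2 of the 19 members had counts in 3 samples, the number needed to be tested. Neither was called by edgeR in any of 15 comparisons. Each had counts in at most 1 sample of a group, so that an unadjusted p of theirs rests on single samples. Both had such a p under 0.05 for CFA against naïve mice at 19 dpi. Only 1 of them did for EAE and for CFA against naïve mice at -2 dpi, before immunization, and at 8 dpi. The same held at 14 dpi for CFA against naïve and for EAE against CFA mice. For EAE against naïve mice both had such a p under 0.05 at 14 dpi, where A1 was in naïve mouse 558 and A3 in EAE mouse 588, opposite in direction, and at 19 dpi, where A1 was in naïve mouse 561 and A3 in naïve mouse 560, and in these comparisons 5.71% and 6.33% of 648 ASVs were called. In the other comparisons 0% of ASVs were called at -2 dpi and for EAE against naïve mice at 8 dpi, and 4.01% at 29 dpi. For CFA against naïve mice the shares were 5.86%, 5.25%, 1.39% and 3.09% at 8, 14, 19 and 29 dpi, and for EAE against CFA mice 6.64%, 9.26%, 5.56% and 0.617%. DESeq2 gave no p for either. With the primer variants merged, type A was called lower by edgeR in EAE than in naïve mice on the days 19 and 29 dpi (adjusted p-values of 0.0406 and 0.0418) and lower in CFA than in naïve mice on 19 dpi (0.0428), where 6.93%, 35.6% and 12.9% of 202 sequences were called. As for the family, type A was at 0 in the lower group in these comparisons.

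Families of similar abundance were present in varying numbers of samples per group. Just above Coriobacteriaceae in mean percent, Peptococcaceae had counts in 20 of 30 naïve, 0 of 29 CFA and 18 of 29 EAE samples. Anaeroplasmataceae had counts in 11 naïve, 17 CFA and 15 EAE samples, and Muribaculaceae in 2, 0 and 9. Just below it, Clostridiales_vadinBB60 had counts in 8 naïve, 16 CFA and 3 EAE samples. Mogibacteriaceae/Anaerovoracaceae had them in 10, 9 and 7 samples, and Christensenellaceae in 1, 8 and 4. Coriobacteriaceae, with 16, 6 and 3, was present more often in naïve than in CFA samples and more often in CFA than in EAE samples, an order that Mogibacteriaceae/Anaerovoracaceae shared. Whether these patterns differ from one another was not tested.

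**Figure D4:**
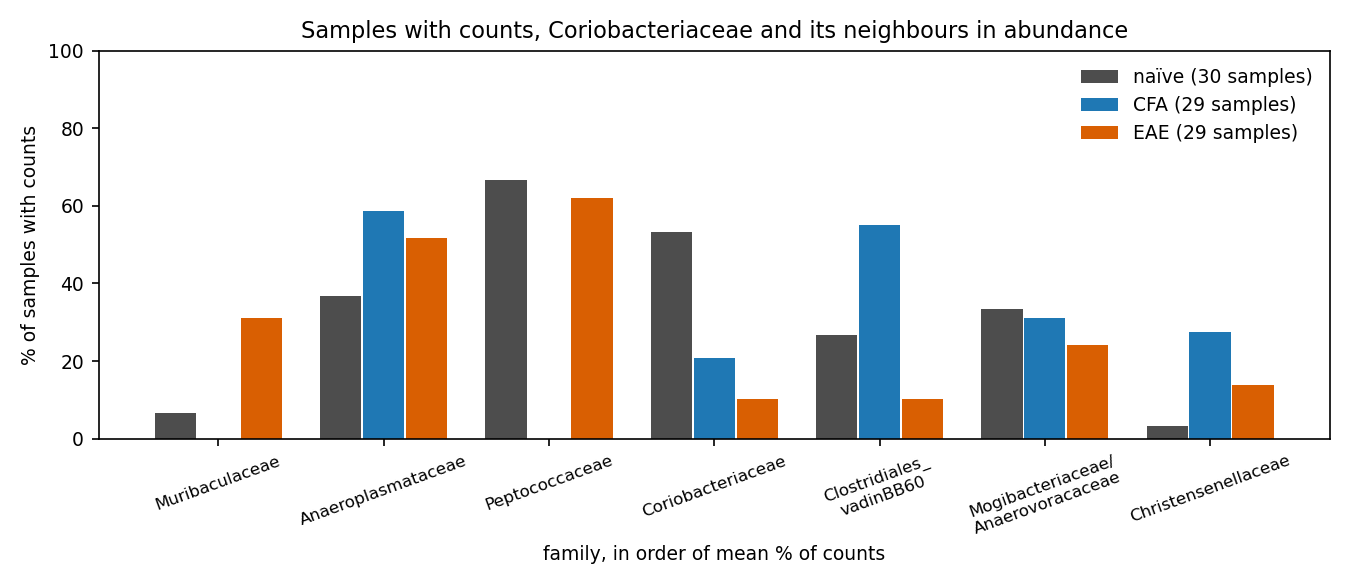
Percent of samples with counts (vertical axis, from 0) in naïve (30 samples), CFA (29) and EAE (29) mice, for Coriobacteriaceae and the 3 families above and 3 below it in mean percent of counts. Coriobacteriaceae had counts in 16 naïve, 6 CFA and 3 EAE samples.

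No genus followed Coriobacteriaceae closely. Over 88 samples, which share mice and days, the highest Spearman rho of percent among 72 genera was 0.393, for Tyzzerella-Clostridium XlVb, which had counts in 18 naïve, 3 CFA and 4 EAE samples and shared 13 samples with Coriobacteriaceae. The genera after it were Lachnospiraceae_NK4A136/COE1 (rho = 0.277), Dorea (0.267), Peptococcus-rc4-4 (0.266) and Acetatifactor (0.236). Many of these values are at 0 together, and the correlations are a description over samples of all groups.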

How the data were processed

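The deposited table holds counts of reads per ASV and sample, which the authors made with DADA2 (consensus chimera removal; version not given in the sources used here). Taxonomy was curated by the authors from Silva, GTDB, RefSeq and Greengenes. The clinical score was deposited per sample and matched the labels in each sample, whereas its animal number differed from the label number in 17 EAE samples. The weight, deposited per sample in another unit, was not used. Water controls were not analysed here.

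Counts were summed by family. Percent is relative to the sample total. Families that had counts in 3 or more samples entered edgeR 4.0.16 (quasi-likelihood, 15 groups of treatment and day, TMMwsp factors from genus counts) and by exact permutation of percent, of the mean percent per mouse and of presence, all two-sided, with Benjamini-Hochberg adjustment over families at 0.05. The main edgeR fit held no term for the mouse, so that repeated samples of a mouse were taken as independent. The mouse number was tried as a block within groups only, and not for EAE mice from 14 dpi on. In the exact tests of percent, days within a mouse were paired by the mouse number in the labels, since the same animals were sampled. For EAE mice at 14 dpi, as an alternative chosen after seeing the data, they were paired by the sample table. DESeq2 1.42.0, other scalings and filters and leaving out each mouse were alternatives. Primers were removed by matching their sequences (Python 3.11.15). Named taxa were the members, the 5 genera with the highest rho, the 3 families on either side in mean percent and a list of Actinobacteria genera. Members and lists were chosen with earlier results of these data known. That samples came from separate mice is as the labels give it.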

Additional observations from a re-analysis of the deposited data

Results flagged for a closer look

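In 4 of the 10 groups of treatment and day with counts, 1 mouse lay apart from the others, with a gap to the nearest mouse that was a larger part of the group's range than Dixon's test allows at 95%. Chance flags about 1 in 20 groups, and in groups mostly at 0 a single mouse with counts is apart by construction. None of the 3 sets of means per mouse over 14, 19 and 29 dpi had such a mouse. CFA mouse 544 at -2 dpi (0.512%) and EAE mouse 556 at 8 dpi (0.626%) were the only mice of their groups with counts. Naïve mouse 559 at 8 dpi (1.034%) lay above the 0.283% of mouse 562, and naïve mouse 563 at 29 dpi (1.005%) above the 0.370% of mouse 560.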

How the results depend on the processing

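Values are adjusted p-values. The lower percent per mouse in EAE than in naïve mice over 14, 19 and 29 dpi passed under each alternative tried (0.00830 to 0.0498), and, chosen after seeing the data, without 14 dpi (0.0387) and without samples under 30 ASVs. For CFA against naïve mice it was lost with the median over days (0.0871) and without 14 dpi (0.174), and ranged from 0.0166 to 0.0747 without 1 mouse. Days with counts, EAE against naïve, ranged from 0.0166 to 0.0996 and was 0.0871 without 14 dpi. Days with counts, CFA against naïve, ranged from 0.0166 to 0.124. EAE against CFA percent per mouse ranged from 0.548 to 1 and its sign turned without CFA mouse 544. By day, EAE against naïve percent at 14 dpi was 0.0747 with medians of mice. Leaving out 1 mouse, exact tests of percent ranged from 0.747 to 1 for EAE against naïve at 8 dpi, 0.804 to 1 and 0.743 to 1 for CFA against naïve at -2 and 8 dpi, 0.0166 to 0.142 for CFA against naïve at 14 dpi and 0.599 to 1 for EAE against CFA at 14 dpi.

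The edgeR calls held with DESeq2, library totals only, no filter, the genus rank and without samples under 30 ASVs. These alternatives are all count models, and the lower group was at 0 in each call. Exact tests of percent did not pass in the same comparisons. They gave 0.174 and 0.653 for EAE against naïve at 19 and 29 dpi, and 0.279 for CFA against naïve at 19 dpi. With only the compared groups in the fit, 8 of 23 comparisons, among them EAE against naïve at 29 dpi, had counts in fewer than 3 samples and gave no value, and both calls at 19 dpi held. DESeq2 turned 3 uncalled differences near 0 in sign (CFA against naïve at 8 dpi, and naïve at 8 and 29 dpi against -2 dpi), each at 1. Without 1 mouse, the edgeR ranges were 0.0199 to 0.05004 (EAE against naïve, 19 dpi), 0.0228 to 0.0494 (29 dpi), 0.0534 to 1 (8 dpi), 0.0272 to 0.0629 (CFA against naïve, 19 dpi), 0.0473 to 0.146 (29 dpi, passed without naïve mouse 562), 0.830 to 1 (8 dpi), 0.0303 to 1 (EAE against CFA, 8 dpi) and 0.808 to 1 (14 dpi). Within groups they were 0.0837 to 1 (CFA, 14 dpi), 1 (naïve, 8 dpi) and 0.908 to 1.00 (naïve, 29 dpi, highest 0.999859). With primer variants merged, 1 member sequence (type A) was tested and was called in 3 comparisons, against 0 calls of single member ASVs.

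The mouse number as a replicate block changed no edgeR call within groups (adjusted p 0.490 to 1). For percent, the paired test of naïve mice at 14 against -2 dpi gave 0.719 and the unpaired exact test, chosen after seeing the data, 0.0498. Pairing EAE mice at 14 dpi with -2 dpi by the sample table gave 0.821 (unpaired 0.465). The sign-flip p of the naïve mice, 0.0312, was the smallest that 6 pairs allow. An unpaired exact test of 6 against 6 mice can reach 0.00216. The sign-flip p of the EAE mice, 0.5, was the smallest that 2 changed mice allow. The paired and unpaired tests thus have different limits, and no conclusion is drawn from the changes between them.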
